A study of Homo sapiens with 8 samples.

Results

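The interferon-stimulated genes are genes that cells switch on after they meet interferon, and 48 of them were followed here by name in HuCCT1, an established human intrahepatic cholangiocarcinoma cell line. The array design carries 34809 gene names and all 48 genes were among them. A gene was tested where 4 or more of the 8 arrays read its brightest probe well above background. That held for 47 of the 48 and for 20464 genes in all. The exception was HERC5, a ligase that attaches ISG15 to other proteins, which no array read well above background. Of the 47 genes, 46 were well above background on all 8 arrays, and RSAD2 was on 6.

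Cells carried the vector shControl, shNontarget, shBEX2-1 or shBEX2-2, each expressing a short hairpin RNA, and every vector was read on 2 single-colour arrays. The labels call shControl and shNontarget control and call shBEX2-1 and shBEX2-2 BEX2 knock down, and the knockdown cells were established as sublines with a retroviral vector. The study describes control cells with a hairpin against luciferase without saying which of the control vectors it is, and the sources used here do not say if a vector's 2 arrays hold RNA of separate cultures. The p-values therefore measure only the spread between arrays, which may be technical.

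Interferons bind receptors at the cell surface, whose kinases JAK1 and TYK2 phosphorylate STAT factors. STAT2 and IRF9 are subunits of a complex, ISGF3, that binds the interferon-stimulated response element in the promoters of its targets, most of which encode sensors of viral nucleic acid or proteins that block viral growth. Many of the genes keep a low level without added interferon in epithelial cells and tumour lines.

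Levels are given as the log2 intensity minus the 75th percentile of the same array, so that a gene at 0 was as bright as that percentile, and differences are differences of these levels. A level describes 1 probe and is not compared between genes. As printed in the study, the target sequences of the BEX2 hairpins are 1 site read on opposite strands, shifted by 1 base. BEX2, the knockdown target, lay lower with both hairpins. Its levels were -3.36 and -3.91 in shControl cells, -2.70 and -3.77 in shNontarget cells, -5.21 and -5.54 in shBEX2-1 cells, where the probe was not well above background, and -4.92 and -4.60 in shBEX2-2 cells. The pooled difference was -1.63 (adjusted p = 0.0116), and with normexp background correction it was -0.45 and not called (adjusted p = 0.0801). Neither hairpin alone was called for BEX2 against either control vector (adjusted p between 0.0563 and 0.203). All 7 biliary epithelial markers were well above background on all 8 arrays, while of 4 hepatocyte markers ALB and TTR were on none, CYP3A4 on 1 and APOA1 on 6. One vector stood apart in its spread. Between the 2 shNontarget arrays, 34.9% of all genes lay over 1 log2 unit apart, against 0.562% to 1.76% for the other vectors. The fit shares 1 spread among all arrays, so the calls between the sublines and against shControl are also given without the shNontarget arrays, an alternative added after seeing the data. All arrays lay on 1 slide, with control arrays in row 1 and knockdown arrays in row 2, so that slide row and knockdown cannot be told apart, while both sublines lay in the same row.

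Many of the promoters hold letters of the response element. RefSeq promoters, from 250 bases before to 50 bases after each start of transcription on GRCh38.p14, were at hand for 39 of the 48 genes, 1 of them (DDX58) under its newer symbol RIGI. The core of the response element (GAAA, any 2 bases, GAAA again, searched on both strands) was found in a promoter of 25 of these 39 genes (64.1%) and of 4.38% of all genes in the table. TTCNNNGAA, the core of the gamma-activated site, which reads alike on both strands, was found for 13 of the 39 (33.3%) and for 9.38% of all genes. No core was found for IRF9, IFI16 and CMPK2, which were called in a comparison below. The same held for DDX58, OAS1, STAT2 and IRF1, and none of these genes is printed here. The following lines give the 170 bases before the start for 8 genes that all hold a core, so they do not represent the whole set. They are written from 5′ to 3′ on the strand of the gene with response element cores in capitals. A core on the opposite strand appears as TTTC, 2 bases and TTTC.
RSAD2: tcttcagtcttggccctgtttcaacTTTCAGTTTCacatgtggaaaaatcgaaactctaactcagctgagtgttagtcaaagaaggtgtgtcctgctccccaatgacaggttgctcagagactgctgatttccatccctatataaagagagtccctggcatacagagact
IFI44L: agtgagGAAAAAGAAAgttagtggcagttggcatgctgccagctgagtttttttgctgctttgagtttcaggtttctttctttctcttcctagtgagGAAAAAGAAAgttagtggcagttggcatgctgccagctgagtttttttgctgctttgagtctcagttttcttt
IFI6: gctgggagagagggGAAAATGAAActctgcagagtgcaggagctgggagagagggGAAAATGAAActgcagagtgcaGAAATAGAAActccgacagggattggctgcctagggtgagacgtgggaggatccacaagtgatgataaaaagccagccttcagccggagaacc
IFIT1: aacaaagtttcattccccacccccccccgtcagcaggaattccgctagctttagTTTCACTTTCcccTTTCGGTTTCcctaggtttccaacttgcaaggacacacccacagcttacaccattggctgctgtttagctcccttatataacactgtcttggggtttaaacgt
ISG15: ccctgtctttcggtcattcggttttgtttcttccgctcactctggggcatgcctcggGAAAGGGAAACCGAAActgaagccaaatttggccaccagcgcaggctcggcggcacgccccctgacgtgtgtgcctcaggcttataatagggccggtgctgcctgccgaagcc
OAS3: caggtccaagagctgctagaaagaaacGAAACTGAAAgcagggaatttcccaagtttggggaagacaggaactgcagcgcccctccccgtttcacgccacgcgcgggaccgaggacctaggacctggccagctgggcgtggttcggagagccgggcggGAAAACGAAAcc
IFI44: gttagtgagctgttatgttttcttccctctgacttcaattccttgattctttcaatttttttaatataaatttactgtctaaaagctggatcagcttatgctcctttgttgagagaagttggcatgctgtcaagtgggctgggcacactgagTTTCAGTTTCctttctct
SAMD9: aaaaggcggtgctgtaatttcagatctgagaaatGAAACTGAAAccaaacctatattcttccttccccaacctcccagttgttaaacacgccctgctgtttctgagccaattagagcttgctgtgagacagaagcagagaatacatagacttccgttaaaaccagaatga

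The RSAD2 stretch (chr2:6877607-6877776, plus strand) lies before the downstream of its 2 listed starts and holds 1 core, on the opposite strand, beginning 145 bases before the start. The promoter of the upstream start held none. IFI44L (chr1:78620278-78620447, plus strand) has the same core letters at 164 and 73 bases before the start, within a run of 66 bases that occurs in both places. IFI6 (chr1:27672193-27672362, minus strand) holds 3 cores, at 156, 115 and 93 bases. IFIT1 (chr10:89392453-89392622, plus strand) has 2 cores on the opposite strand, at 116 and 103 bases, and in ISG15 (chr1:1013327-1013496, plus strand) 2 cores overlap, the first at 113 bases. OAS3 (chr12:112938304-112938473, plus strand) has cores at 143 and 12 bases, IFI44 (chr1:78649619-78649788, plus strand) has 1 on the opposite strand at 18 bases, and SAMD9 (chr7:93117980-93118149, minus strand) has 1 at 136 bases. Presence of a core did not sort the genes by their difference between the sublines. The median of shBEX2-2 minus shBEX2-1 was -1.24 over the 24 tested genes with a core and -1.09 over the 14 without, and their ranges, from -5.58 to -0.29 and from -3.91 to -0.14, overlapped.

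The interferon-stimulated genes lay lower in shBEX2-2 cells than in shBEX2-1 cells, and they did so together. The fitted difference was below 0 for 47 of 47 genes, with a median of -1.23 against -0.039 for all genes tested. It was at least 1 on the log2 scale for 32 of the 47, as it was for 1.26% of all genes, and at least 2 for 10. Both shBEX2-2 arrays lay below both shBEX2-1 arrays for 46 of the 47 genes, as they did for 33.3% of all genes, and the exception was PSMB9. In these bulk samples, fewer cells that express a gene and less RNA per cell cannot be told apart.

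**Figure D1:**
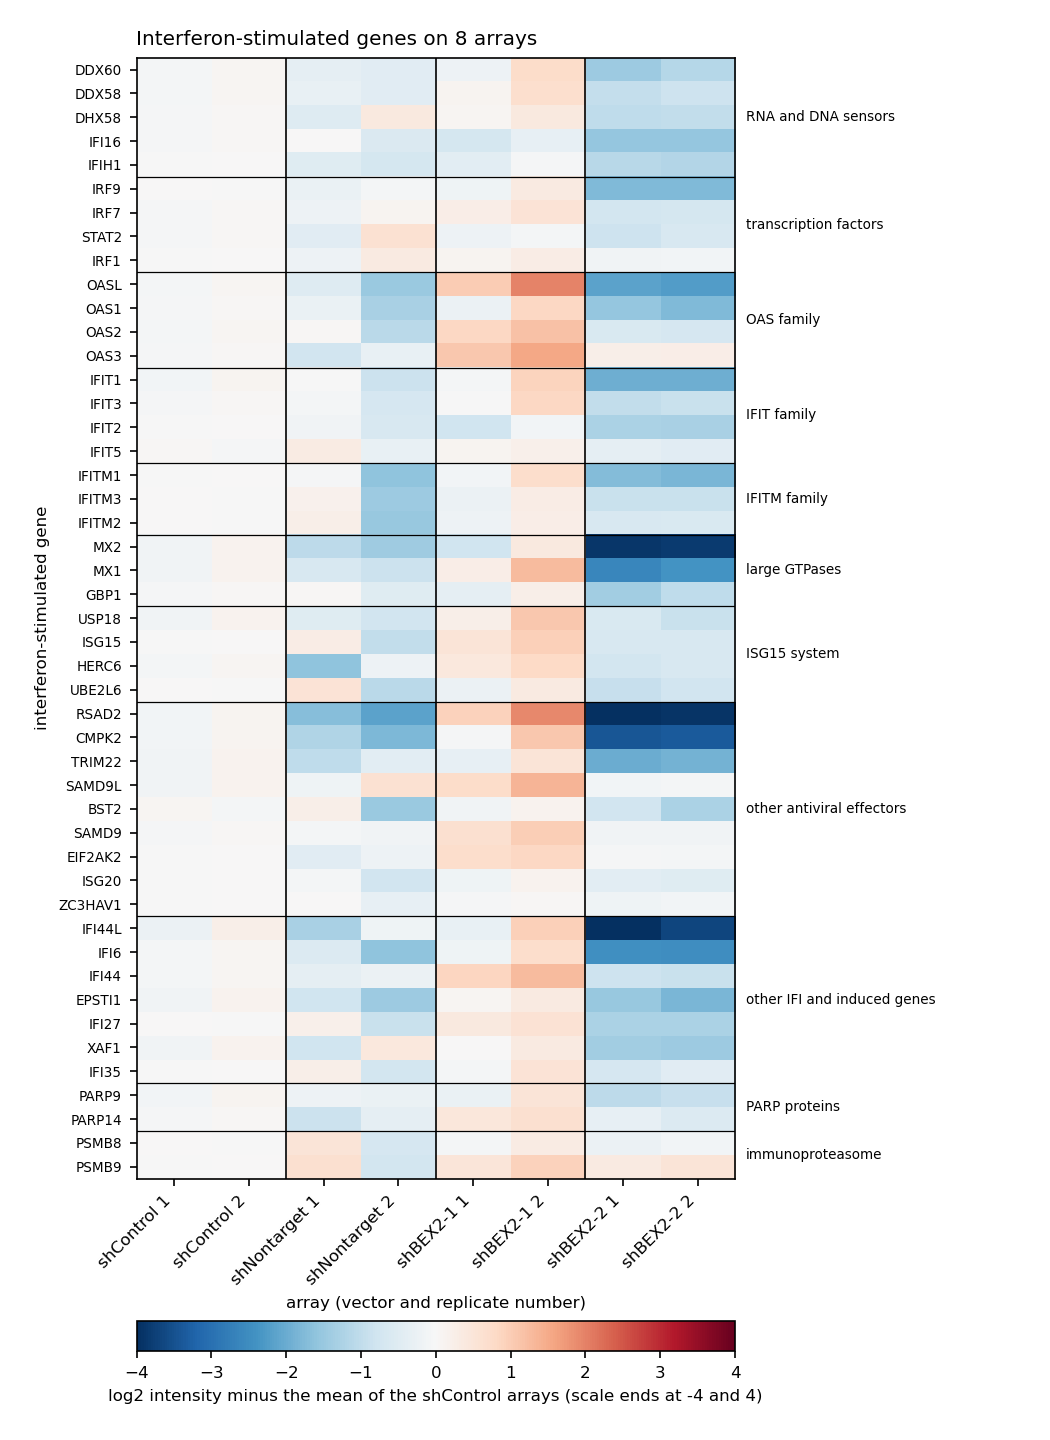
Level of the 47 tested interferon-stimulated genes (rows, grouped by role) on each of the 8 arrays (columns), as log2 intensity minus the mean of the shControl arrays, with blue below and red above it. The shBEX2-2 columns are blue in nearly every group, deepest for MX2, RSAD2, CMPK2 and IFI44L, while shBEX2-1 replicate 2 is red in most rows.

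With 1 spread for all 4 vectors, limma called a single one of these 47 differences at an adjusted p of 0.05, that of RSAD2, beside 0.00489% of all genes called lower and 0.00977% called in either direction. At an unadjusted p of 0.05, 36 of the 47 passed, against 7.29% of all genes. Without both shNontarget arrays, limma called 44 of the 47 lower in shBEX2-2 cells, beside 7.06% of all genes called lower and 7.51% higher. From the 4 subline arrays alone it called 42, beside 6.54% of all genes, and the 5 not called were IRF1, ISG20, ZC3HAV1, PSMB8 and PSMB9. The direction was the same within each replicate number, which was fixed in advance for the 46 genes whose subline arrays did not overlap. All 47 genes lay lower in shBEX2-2 cells on the arrays numbered 1, by a median of -0.99, and on those numbered 2, by a median of -1.43.

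**Figure D2:**
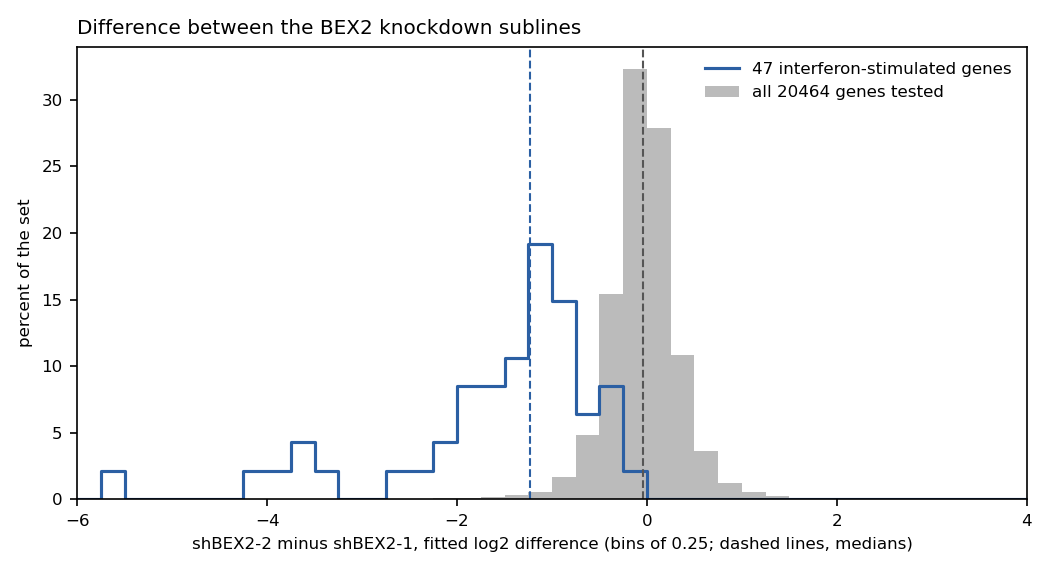
Fitted log2 difference, shBEX2-2 minus shBEX2-1, in bins of 0.25 (horizontal axis) against the percent of each set in the bin (vertical axis), for all 20464 genes tested (grey) and the 47 interferon-stimulated genes (blue line). The dashed medians stand at -0.039 and -1.23, and the blue line lies wholly below 0.

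RSAD2 encodes viperin, an enzyme that turns a nucleotide into a chain terminator of viral RNA synthesis. It was read by a probe for NM_080657 at chromosome 2 of hg19 from 7037200 to 7037259. Its levels were -1.93 and -1.71 in shControl cells, -3.52 and -3.96 in shNontarget cells, -0.89 and 0.09 in shBEX2-1 cells, and -6.24 and -5.73 in shBEX2-2 cells. The 4 vectors did not overlap, and the shBEX2-2 arrays were the ones on which the probe was not well above background, so that the fold is a bound. RSAD2 was at least 47.9-fold lower in shBEX2-2 than in shBEX2-1 cells (-5.58, standard error 0.38, adjusted p = 0.0465), and it was 1 of the 2 genes called in that comparison. This call did not hold with the replicate number as a block (adjusted p = 0.119), with normexp background correction, where the difference was -3.00 (0.0617), or without the filter on dim probes (0.0589). It was also lost without either shControl array, either shBEX2-1 array or either shBEX2-2 array, with adjusted p between 0.125 and 0.661. Leaving out shNontarget replicate 1 or 2 gave adjusted p of 0.000208 and 0.00018.

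Next to RSAD2 in size stood IFI44L, CMPK2, OASL and MX2. IFI44L levels (NM_006820, chromosome 1 of hg19 from 79107590 to 79107649) were 0.27 and 0.74 in shControl, -0.79 and 0.34 in shNontarget, 0.20 and 1.45 in shBEX2-1 and -3.66 and -3.18 in shBEX2-2 cells. Only the shBEX2-2 arrays stood apart from the rest, with a difference of -4.24 between the sublines. CMPK2, a nucleotide kinase and the neighbour of RSAD2 on chromosome 2, stood at -1.52 and -1.28, at -2.61 and -3.19, at -1.43 and -0.31, and at -4.83 and -4.75 in the same order of vectors. OASL is an OAS-like protein without synthetase activity that aids RIG-I. Its levels (NM_003733, chromosome 12 of hg19 from 121458320 to 121458379) were -1.42 and -1.27 with shControl, -1.86 and -2.82 with shNontarget, -0.31 and 0.63 with shBEX2-1, and -3.47 and -3.57 with shBEX2-2. Here shBEX2-1 lay above and shBEX2-2 below all control arrays.

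MX1 and MX2 encode dynamin-like GTPases that trap viral particles. For MX2 (NM_002463, chromosome 21 of hg19 from 42780501 to 42780560) the levels were 0.64 and 0.92 in shControl, -0.28 and -0.63 in shNontarget, -0.02 and 1.17 in shBEX2-1 and -3.12 and -3.06 in shBEX2-2 cells. For MX1 they were 2.87 and 3.16, 2.39 and 2.17, 3.29 and 4.27, and 0.42 and 0.63. Both genes had their lowest values on the shBEX2-2 arrays by a wide margin, and shBEX2-1 lay above all other arrays for MX1 but not for MX2. Between the sublines the difference was -3.66 for MX2 and -3.26 for MX1. Neither was called with all 8 arrays (adjusted p = 0.0564 for MX1), and without the shNontarget arrays both were (adjusted p = 0.000843 and 0.00073).

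**Figure D3:**
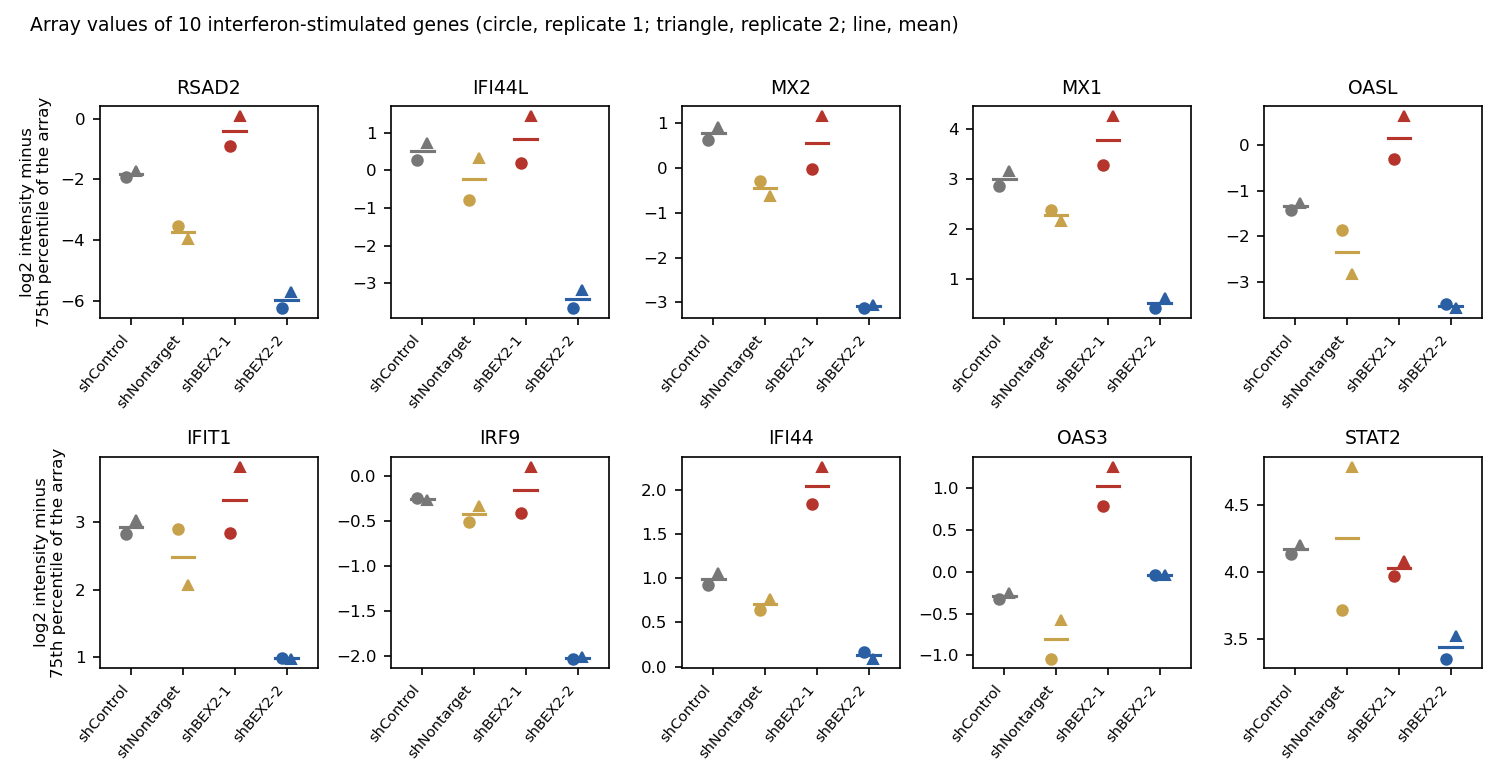
Level (log2 intensity minus the 75th percentile of the array) of 10 interferon-stimulated genes on the 2 arrays of each vector, with circles for replicate 1, triangles for replicate 2 and a line at their mean. In RSAD2, MX1, OASL and IFI44 the control arrays lie between the sublines. In IFI44L, MX2 and IRF9 shBEX2-2 alone is far from the others, and OAS3 is high with shBEX2-1.

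Set against shControl, whose arrays are shared by the following comparisons, shBEX2-2 cells carried lower levels of most of the genes. Of the 47, limma called 15 lower and 0 higher, where 3.59% of all genes were called lower and 3.82% higher. At an unadjusted p under 0.05 there were 27 of the 47, against 20.5% of all genes. The median difference was -0.94 against -0.0034 for all genes, and both shBEX2-2 arrays lay below both shControl arrays for 44 of the 47, as they did for 37.1% of all genes. The called genes came from most roles. Among the sensors IFIH1, which detects long double-stranded RNA, fell by 1.14 and IFI16, which detects DNA, fell by 1.55. Of the 4 transcription factors IRF9 fell, and of the large GTPases MX1 and MX2. The 15 also held OASL, IFIT1, IFIT2, RSAD2, CMPK2, TRIM22, IFI6, IFI44, IFI44L and EPSTI1. None of the 3 IFITM genes, the 4 genes of the ISG15 system, the 2 PARP genes or the 2 immunoproteasome subunits was called.

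The largest falls from shControl were those of RSAD2 (-4.16, standard error 0.38, adjusted p = 0.00447, at least 17.9-fold lower), IFI44L (-3.92, standard error 0.53, adjusted p = 0.0112, 15.2-fold) and MX2 (-3.87, standard error 0.38, adjusted p = 0.00508, 14.6-fold). IRF9, the DNA-binding subunit of ISGF3, stood at -0.25 and -0.27 in shControl, -0.51 and -0.33 in shNontarget, -0.42 and 0.10 in shBEX2-1 and -2.03 and -2.01 in shBEX2-2 cells. The shBEX2-2 arrays lay far below the other 6, which spanned -0.51 to 0.10, and IRF9 was 3.40-fold lower than shControl (-1.76, standard error 0.20, adjusted p = 0.00696). MX1 fell by 2.49 (standard error 0.33, adjusted p = 0.0103). IFIT1, which binds the ends of viral RNA, stood at 2.82 and 3.03 in shControl, 2.89 and 2.07 in shNontarget, 2.84 and 3.83 in shBEX2-1 and 0.98 and 0.98 in shBEX2-2 cells, a fall of 1.94 from shControl (standard error 0.39, adjusted p = 0.0368).

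Among the sensors and factors outside the called set, DDX58, which encodes the RNA sensor RIG-I, stood at 0.23 and 0.41 in shControl, 0.02 and -0.14 in shNontarget, 0.43 and 1.01 in shBEX2-1 and -0.62 and -0.51 in shBEX2-2 cells. IRF7, which amplifies interferon production, had 3.16 and 3.25, 3.01 and 3.33, 3.46 and 3.74, and 2.46 and 2.49 in the same order. In both the shBEX2-2 arrays were the lowest and the shBEX2-1 arrays the highest of the 8. OAS1, a synthetase like OAS3, had -1.24 and -1.16 in shControl, -1.46 and -2.49 in shNontarget, -1.42 and -0.39 in shBEX2-1 and -2.73 and -2.97 in shBEX2-2 cells. ISG15, a ubiquitin-like modifier, had 4.28 and 4.29, 4.57 and 3.31, 4.78 and 5.24, and 3.65 and 3.65. For OAS1 shBEX2-2 was again below all other arrays, while for ISG15 the lowest was a shNontarget array. STAT2, a partner of IRF9, had 4.13 and 4.20, 3.72 and 4.78, 3.97 and 4.08, and 3.36 and 3.52, and IRF1, a factor of the response to interferon gamma, -0.65 and -0.59, -0.83 and -0.26, -0.51 and -0.34, and -0.77 and -0.73. The highest STAT2 and IRF1 levels were both on shNontarget replicate 2. Between the sublines the difference was -1.28 for DDX58 (standard error 0.22, adjusted p = 0.137), -1.12 for IRF7 (0.129), -1.95 for OAS1 (0.248), -1.36 for ISG15 (0.427), -0.59 for STAT2 (0.9) and -0.33 for IRF1 (0.938). Without the shNontarget arrays all 6 were called, from an adjusted p of 0.000855 for IRF7 to 0.0479 for IRF1.

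Several of these genes were lower in shBEX2-2 than in shControl cells without being called. The difference was -0.73 for STAT2 (adjusted p = 0.297), -0.73 for IRF7 (0.0653), -1.65 for OAS1 (0.0852), -0.88 for DDX58 (0.0666) and -0.63 for ISG15 (0.472). IRF1 differed by -0.13 (0.827). The fitted difference was above 0 for 2 genes, PSMB9 (0.44) and OAS3 (0.25), neither of them called. Without the shNontarget arrays 39 genes were called lower and 1 higher, beside 22.5% and 21.6% of all genes. The higher gene was PSMB9, and the 7 not called were IRF1, OAS3, EIF2AK2, ZC3HAV1, SAMD9, SAMD9L and PSMB8. From the 4 arrays of these vectors alone 41 were called, 39 lower and 2 higher, beside 23.9% of all genes called lower and 23% higher. With the replicate number as a block 11 of the 15 were called, and OASL, IFIT1, IFIT2 and IFI44 missed the threshold with adjusted p of 0.0598, 0.0676, 0.0795 and 0.0551. The count also depended on single arrays. Without a shControl or a shBEX2-2 array, which leaves 1 array in that vector, the median difference ran from -0.97 to -0.89.

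Leukocyte markers were read on the same arrays, since macrophages and lymphocytes are rich in many of these genes. Of 5 markers, CD68 and CD14 were well above background on all 8 arrays, PTPRC on 7 and CD3E on 3. Their summed level, relative to the 75th percentile, was 0.862 to 0.883 in shControl, 0.756 to 0.927 in shNontarget, 1.25 to 1.27 in shBEX2-1 and 1.61 to 1.65 in shBEX2-2 cells. CD14 was called higher in shBEX2-2 than in shControl cells (0.73, adjusted p = 0.0412), and in the pooled knockdown cells CD14 and CD68 were called higher than in the control cells (0.54 and 0.99, adjusted p = 0.0296 and 0.0473). The part of these markers in the levels of the interferon-stimulated genes was not tested.

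In shBEX2-1 cells few of the genes were called against shControl, all of them higher. Limma called 4 of the 47 genes higher and 0 lower, beside 2.59% of all genes called higher and 2.74% lower. At an unadjusted p under 0.05 there were 9 of the 47, against 19.8% of all genes, and both shBEX2-1 arrays lay above both shControl arrays for 20, against 39.1%. The median difference was 0.26 against 0.044 for all genes, and 40 of the 47 fitted values were above 0. That direction rested on shBEX2-1 replicate 2. Without it the median was -0.035 and 22 of the 47 lay above shControl, and without replicate 1 the median was 0.58 and 43 did. The 4 were OAS3, which makes the oligoadenylates that activate RNase L, IFI44, the kinase EIF2AK2 (PKR), which halts translation on sensing double-stranded RNA, and SAMD9, an antiviral factor. OAS3 levels (NM_006187, chromosome 12 of hg19 from 113410131 to 113410190) were -0.32 and -0.25 in shControl, -1.04 and -0.58 in shNontarget, 0.79 and 1.26 in shBEX2-1 and -0.04 and -0.04 in shBEX2-2 cells. Only the shBEX2-1 arrays were above 0, and the difference from shControl was 1.31 (standard error 0.22, adjusted p = 0.0285, 2.48-fold higher).

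IFI44 (NM_006417, chromosome 1 of hg19 from 79128479 to 79128538) stood at 0.92 and 1.06 in shControl, 0.64 and 0.76 in shNontarget, 1.83 and 2.26 in shBEX2-1 and 0.17 and 0.09 in shBEX2-2 cells. It rose in shBEX2-1 cells by 1.06 (standard error 0.18, adjusted p = 0.0285) and fell in shBEX2-2 cells by 0.86 (standard error 0.18, adjusted p = 0.0424), and it was the gene among the 47 called both ways against the same shControl arrays. SAMD9 had -1.39 and -1.30 in shControl, -1.41 and -1.49 in shNontarget, -0.70 and -0.36 in shBEX2-1 and -1.47 and -1.48 in shBEX2-2 cells, and rose in shBEX2-1 cells by 0.82 (standard error 0.17, adjusted p = 0.0465). For this gene the shBEX2-2 arrays lay within the range of the shNontarget arrays. EIF2AK2 rose by 0.77 (standard error 0.15, adjusted p = 0.0407). With the probes of each gene averaged, limma did not call it (0.75, adjusted p = 0.379). With the replicate number as a block, OAS3 and IFI44 alone were called (2 genes), and SAMD9 and EIF2AK2 missed the threshold with adjusted p of 0.0732 and 0.064.

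MX1 and ISG15 stood higher in shBEX2-1 cells without being called. The difference was 0.76 for MX1 (adjusted p = 0.266), 0.73 for ISG15 (0.395) and 1.42 for RSAD2 (0.1), while STAT2 was at -0.14 (0.888) and IRF9 at 0.10 (0.864). OAS1, IFIT1, DDX58, IRF7 and IRF1 had differences between 0.20 and 0.41. Without shBEX2-1 replicate 2 the difference was below 0 for OAS1 (-0.22), IRF9 (-0.16) and IFIT1 (-0.0801). Without the shNontarget arrays 14 genes were called higher and 1 lower, beside 22.8% and 20.7% of all genes, and the lower one was IFI16. From the 4 arrays alone it was 15, with 14 higher and 1 lower, beside 19.5% of all genes called higher and 18.5% lower. The share called in either direction was 31.9% of the 47, against 38.0% of all genes. Leaving out single arrays, the count was 15 without shNontarget replicate 1 or 2, beside 43.5% and 43.6% of all genes called, and without any other array it was 0, as it was over all genes.

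**Figure D4:**
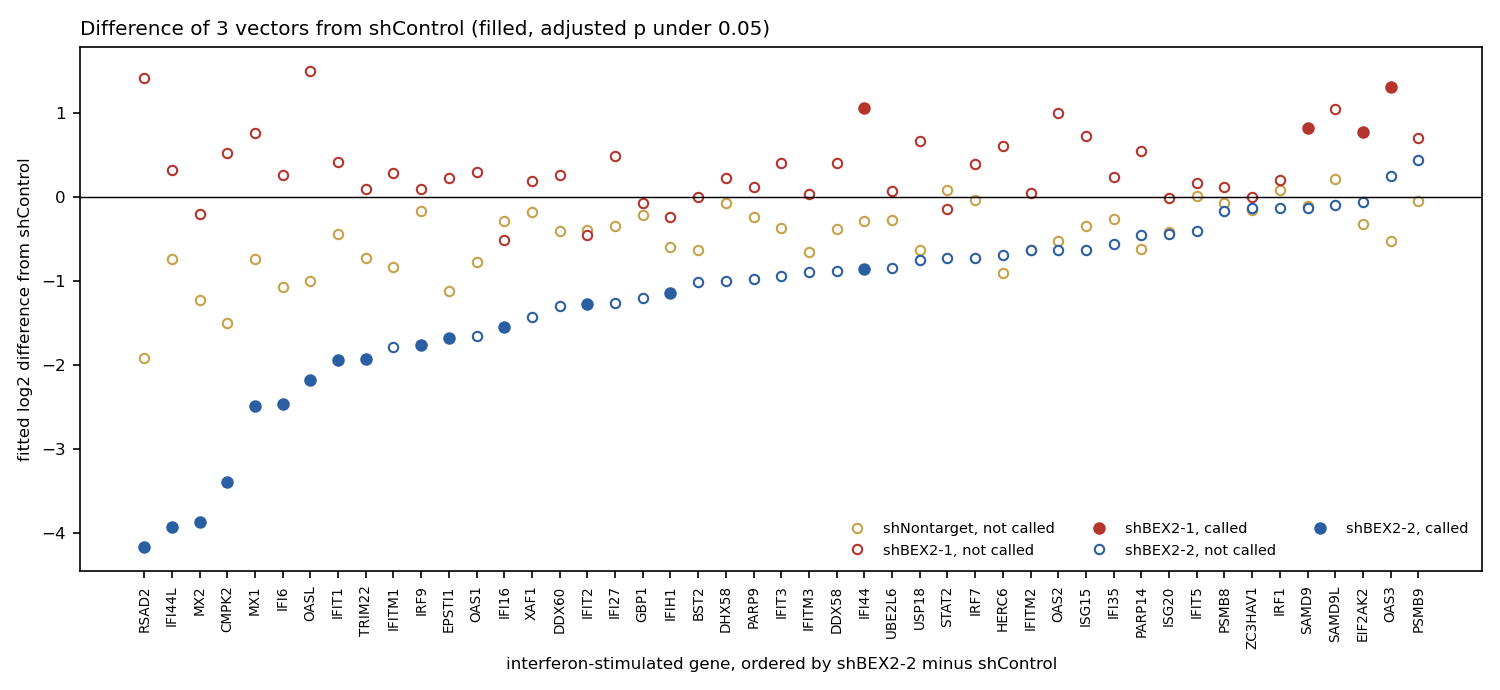
Fitted log2 difference from shControl (vertical axis) of each interferon-stimulated gene (horizontal axis, ordered by shBEX2-2) in shNontarget, shBEX2-1 and shBEX2-2 cells, filled where called at an adjusted p of 0.05. The 15 filled shBEX2-2 points reach from -0.86 to -4.16 and the 4 filled shBEX2-1 points from 0.77 to 1.31, and no shNontarget point is filled.

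The control vectors differed from each other in these genes by amounts that did not pass the test. The fitted difference of shNontarget from shControl was below 0 for 43 of the 47, with a median of -0.39 against -0.0095 for all genes. Both shNontarget arrays lay below both shControl arrays for 25 of the 47, against 12% of all genes, and 8 of the 47 had an unadjusted p under 0.05, against 7.64% of all genes. Limma called 0 of the 47 and 0% of all genes. The lowest was RSAD2, at -1.92 (standard error 0.38, adjusted p = 0.367). Leaving out shNontarget replicate 1 gave 27 called genes of the 47, beside 45.1% of all genes, and leaving out replicate 2 gave 16, beside 46.3%, while no gene was called without any other single array.

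Each subline was also set against the shNontarget arrays, which both comparisons share. In shBEX2-1 cells, 7 of the 47 genes were higher and 0 lower, beside 1.5% of all genes called higher and 1.62% lower. The median difference was 0.78 against 0.061 for all genes, and 20 of the 47 had an unadjusted p under 0.05, against 19.3%. The 7 called genes were OAS3, OASL, EIF2AK2, RSAD2, SAMD9, IFI44 and PARP14, an ADP-ribosyltransferase. The probes of EIF2AK2 differed in the control vectors. For both sublines minus both controls its brighter probe gave 0.51 and its other probe -0.0085. For shBEX2-1 minus shControl they gave 0.77 and 0.73. RSAD2 rose by 3.34 (standard error 0.38, adjusted p = 0.0188, 10.1-fold), OASL by 2.50 (standard error 0.41, adjusted p = 0.0358) and OAS3 by 1.83 (standard error 0.22, adjusted p = 0.0215). With the replicate number as a block the count was 3, namely RSAD2, OAS3 and IFI44. The calls depended on single arrays. With 1 array left in a vector, the median difference was 0.96 without shNontarget replicate 1 and 0.56 without replicate 2. Without shBEX2-1 replicate 1 it was 1.09, and without replicate 2 it was 0.43.

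In shBEX2-2 cells, 7 of the 47 genes were lower than with shNontarget and 0 were higher, where 2.99% of all genes were called lower and 3.22% higher. At an unadjusted p under 0.05 there were 22 of the 47, against 21.3%. The 7 called genes were IFI16, IRF9, MX1, MX2, RSAD2, CMPK2 and IFI44L. The largest were IFI44L (-3.19, standard error 0.53, adjusted p = 0.0261), MX2 (-2.64, standard error 0.38, adjusted p = 0.019) and RSAD2 (-2.24, standard error 0.38, adjusted p = 0.028, at least 4.73-fold lower). The median over the 47 was -0.57, against 0.011 for all genes. With the replicate number as a block 5 of the 7 were called, and IFI16 and CMPK2 missed the threshold (adjusted p = 0.0642 and 0.0742). The calls depended on single arrays here too. With 1 array left in a vector, the median difference was -0.44 without shNontarget replicate 1 and -0.86 without replicate 2. Without shBEX2-2 replicate 1 it was -0.64, and without replicate 2 it was -0.62.

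The knockdown design also implies a comparison of both sublines with both controls, in which no interferon-stimulated gene was called. Limma called 0 of the 47 between the 4 BEX2 knockdown and the 4 control arrays, beside 12.9% of all genes (6.68% higher and 6.26% lower). At an unadjusted p under 0.05 there were 3 of the 47, against 27.8% of all genes, and the median difference was -0.17 against 0.027. The sign of that median rested on single arrays. It was 0.046 and 0.044 without shBEX2-2 replicate 1 and 2, and -0.30 and -0.51 without shBEX2-1 replicate 1 and 2. The 4 knockdown arrays lay beyond the 4 control arrays for 1 gene, OAS3, which lay above them, as did 11.4% of all genes. For RSAD2 the knockdown levels ran from -6.24 to 0.09 and the control levels from -3.96 to -1.71, and the pooled difference was -0.41 (standard error 1.40, adjusted p = 0.886). MX1 (-0.50, adjusted p = 0.743), IFIT1 (-0.55, 0.616), IRF9 (-0.75, 0.336), STAT2 (-0.48, 0.257), IRF7 (-0.15, 0.792), OAS1 (-0.29, 0.788), DDX58 (-0.05, 0.943), IRF1 (-0.0044, 0.991) and ISG15 (0.22, 0.781) were not called either, and 7 of these 10 genes, RSAD2 among them, had a difference that turned its sign under at least 1 alternative.

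Other fits of the pooled comparison differed in their calls. The rank product, the method the study names for its arrays, called 836 genes (4.09%), with 2 of the 47 among them, MX2 and IFI44L, both lower. The methods' t-test gave 2 of the 47 at an unadjusted p of 0.05, against 26.5% of all genes, and 0 after Benjamini-Hochberg adjustment. The 4-vector model called 5 of the 47 for the mean of the sublines against the mean of the controls, beside 13.6% of all genes. With array weights, whose estimation did not converge, 32 of the 47 were called, 30 of them lower, beside 58.7% of all genes, and the median was -0.67. Leaving out shBEX2-1 replicate 2 gave 2 genes, beside 8.32% of all genes. Leaving out shNontarget replicate 1 or 2 gave 1 each, beside 23.1% and 21.1%. Leaving out any other array gave 0, beside 6.07% to 7.51%.

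The order of the 4 vectors was shared by most of the genes. The mean was highest in shBEX2-1 cells for 40 of the 47 genes, against 27.4% of all genes, and lowest in shBEX2-2 cells for 40, against 27.4%. Both held for 33 of the 47 and for 5.10% of all genes. In 7 of the 47, all 4 control arrays lay between the arrays of the sublines, as in 0.259% of all genes. These orders are of means of 2 arrays, and the first rested in part on shBEX2-1 replicate 2. Without it 22 of the 47 genes were highest in shBEX2-1 cells, against 31.2% of all genes, and 17 were also lowest in shBEX2-2 cells, against 6.14%. Where shControl and shNontarget were neighbours in the order, their difference was not called for any of the genes, and shBEX2-1 and shControl differed by the test for 4.

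Within shBEX2-1 the 2 arrays themselves differed in these genes. Replicate 2 was above replicate 1 for 47 of 47 genes, by a median of 0.47, and for 46.4% of all genes, by a median of -0.019. For the 47 genes the gap ran from 0.11 to 1.25 on the log2 scale and was over 1 for 4. On shControl replicate 2 lay higher for 39 of the 47, by a median of 0.09, and on shBEX2-2 for 28, by 0.014. The shNontarget arrays ran the other way, with 33 of the 47 lower on replicate 2 and a median of -0.43. What differed between the arrays of a vector was not given in the sources used here. The sublines did not overlap for 46 of the 47 genes in spite of the gap.

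**Figure D5:**
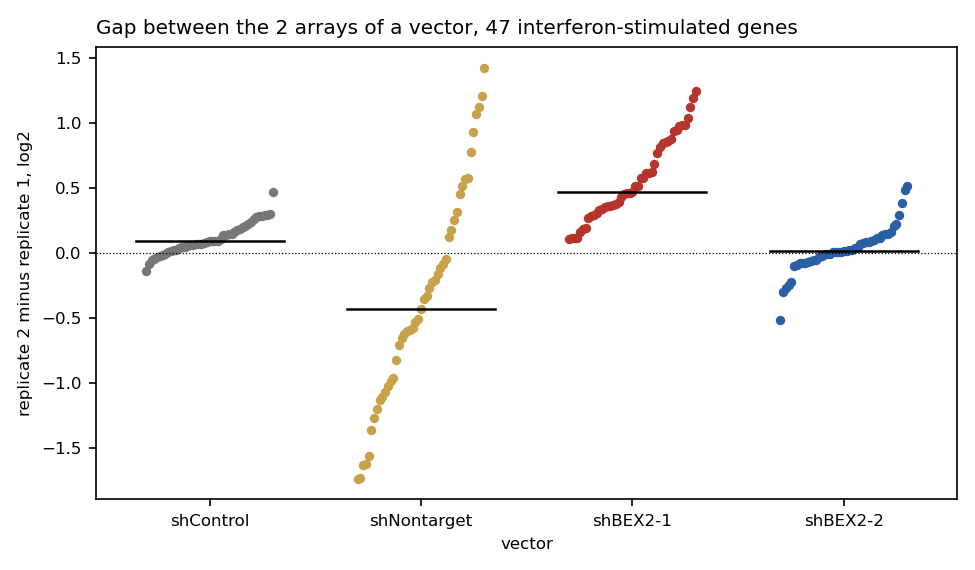
Replicate 2 minus replicate 1 on the log2 scale (vertical axis) for each of the 47 genes, sorted within each vector (horizontal axis), with a black line at the median. All shBEX2-1 points lie above 0 around a median of 0.47, the shNontarget points spread from -1.73 to 1.43, and the shControl and shBEX2-2 points lie near 0.

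The other genes of the pathway had no common direction between the sublines. The 29 other pathway genes tested were receptors and kinases, STAT and IRF factors, negative regulators, sensing adaptors and interferons. Of these, 0 were called between the sublines, beside 0.00977% of all genes. At an unadjusted p under 0.05 there were 7 of the 29, against 7.29% of all genes. Over the 29 genes the fitted difference was above 0 for 13 and below 0 for 16, with a median of -0.017 against -0.039 for all genes. The lowest of the 10 sensing adaptors was ZBP1, at -1.74, which was well above background on 1 of the shBEX2-2 arrays. TMEM173, the adaptor STING, differed between the sublines by -1.30 (adjusted p = 0.101). IFNAR1, a receptor chain, was higher in shBEX2-2 than in shBEX2-1 cells by 0.73, the largest rise among the 9 receptors and kinases. The kinases JAK1 (-0.10, adjusted p = 1) and TYK2 (0.04, adjusted p = 1) and the receptor chain IFNAR2 (-0.17, adjusted p = 1) were close to 0 between the sublines.

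Against shControl, 1 of the 29 pathway genes was called in shBEX2-1 cells and 3 in shBEX2-2 cells, beside 5.32% and 7.41% of all genes, so that these counts were near the background. IFNAR1, the other chain of the receptor for type I interferons, fell in shBEX2-1 cells by 1.29 (standard error 0.14, adjusted p = 0.00922), with levels of -1.20 and -1.37 against 0.00 and 0.01 in shControl. In shBEX2-2 cells it was at -0.58 and -0.53 (-0.56, adjusted p = 0.0683). In shBEX2-2 cells IFNGR1 fell by 0.74 (adjusted p = 0.0282) and ZBP1, a sensor of nucleic acid that interferon also induces, by 2.43 (standard error 0.30, adjusted p = 0.00879). MB21D1, the DNA sensor cGAS, listed as C6orf150 on the array, rose by 0.94 (standard error 0.18, adjusted p = 0.0316).

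Pooled over the sublines, MB21D1 was higher in knockdown than in control cells by 1.10 (standard error 0.17, adjusted p = 0.0044), and PTPN2, a phosphatase that restrains STAT signalling, was lower by 0.41 (adjusted p = 0.0405). Against shNontarget, MB21D1 rose by 1.26 in shBEX2-1 and by 1.40 in shBEX2-2 cells. In the same comparisons SOCS3, an inhibitor of JAK signalling, fell by 1.08 in shBEX2-1 cells, ZBP1 fell by 1.82 in shBEX2-2 cells, and the adaptor TRAF3 rose there by 0.81. Among the interferons themselves, probes for IFNA2, IFNB1, IFNK, IFNW1, IFNG and IL28B were not well above background on any array, and that for IL29 was on 1. IFNE and IL28A were well above background on all 8 and were not called in any of the 7 comparisons.

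A few of the 47 genes differed little between the sublines. ZC3HAV1, which binds CpG-rich viral RNA, had the smallest difference between the sublines by its brighter probe (-0.14), but its other probe gave -0.69. It was followed by the immunoproteasome subunits PSMB9 (-0.27) and PSMB8 (-0.29), the factor IRF1 (-0.33) and the exonuclease ISG20 (-0.42). PSMB9 levels were 1.78 and 1.78 in shControl, 2.41 and 1.05 in shNontarget, 2.25 and 2.72 in shBEX2-1 and 2.14 and 2.29 in shBEX2-2 cells. All arrays of both sublines lay above shControl for this gene, and the sublines overlapped.

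By role, the median difference between the sublines was -3.26 for the 3 large GTPases, -1.90 for the 7 IFI and other induced genes, -1.79 for the 4 OAS genes and -1.33 for the 4 genes of the ISG15 system. It was -1.23 for the 5 sensors, -1.08 for the 4 IFIT genes, -1.05 for the 2 PARP genes, -1.02 for the 9 other antiviral effectors, -0.93 for the 3 IFITM genes, which hinder viral entry, -0.86 for the 4 transcription factors and -0.28 for the 2 immunoproteasome subunits. The immunoproteasome subunits, from -0.29 to -0.27, lay within the range of the other antiviral effectors and outside those of the other groups, and no test was made between groups. Of the 47 genes, 10 had 11 further probes that were kept, and all 11 lay lower in shBEX2-2 than in shBEX2-1 cells. In 1 case the probe differed in this comparison from the one that stood for its gene by over 1, an OAS2 probe with -2.70 where the brighter one gave -1.63. For shBEX2-2 minus shControl the brighter OAS2 probe gave -0.63 and the others -2.11 and -1.78. For both sublines minus both controls the brighter OAS2 probe gave 0.45 and the others -0.37 and -0.31. The HERC6 probes gave 0.41 and -0.20 there, so these pooled signs depended on the probe. The other OAS3 probe, well above background on 7 arrays, gave 1.60 for shBEX2-1 minus shControl, where the brighter one gave 1.31.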

How the data were processed

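RNA of 8 HuCCT1 samples was read on Agilent arrays of 1 slide. The authors scanned them with Agilent Feature Extraction 10.7.3.1, per the submitters' processing notes, and deposited the processed intensity of each spot, background-subtracted and not scaled between arrays (the value table they added is that quantity, rounded). Background subtraction makes dim probes less certain. From 58717 non-control spots per array, outlier spots were left out, log2 was taken, values were set relative to the 75th percentile of their array, repeat spots were averaged, and the brightest probe well above background on at least 4 of 8 arrays stood for its gene, which left 20464 genes. Between 59.8% and 64.6% of spots were well above background and 0 were saturated; the number of arrays limits the precision.

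Tests used limma 3.58.1 with a variance trend (R 4.3.3, statmod 1.5.0; Python 3.11.15, numpy 2.4.6, pandas 2.3.3, matplotlib 3.10.9), with Benjamini-Hochberg adjustment over all genes and calls at 0.05. The pooled comparison fitted 4 against 4 arrays, and the other 6 comparisons came from 1 model of the 4 vectors. The scripts were tested on simulated data. The members and lists were chosen with earlier results of these data known. Named were, in each comparison, the 3 largest called rises and falls and a fixed set (STAT2, IRF1, IRF7, IRF9, ISG15, MX1, OAS1, IFIT1, DDX58, RSAD2), beside pathway genes called and JAK1, TYK2, IFNAR1, IFNAR2 and IFNB1 (an item of the rule is not reported here); others appear by count, or as called genes, or were named after their values were seen (CMPK2, SAMD9, TMEM173, PSMB9, promoter examples). A gene not well above background in a group has a bound, against the higher of its own value and the lowest value of probes well above background; for RSAD2 its own value was the higher. Names of the deposited files tie replicate numbers 1 and 2 to a day each across vectors, without saying what was done; across genes, replicate differences of vector pairs correlated with r of 0.26, 0.13, 0.11, -0.063, 0.21 and 0.23. Alternatives covered quantile normalization, normexp with an offset of 50, the series table, dim-probe filters, averaged probes per gene, the replicate block, array weights, the vector as a random block, each control vector alone, a minimum log2 fold change of 1, rank product with 100 permutations, the methods' t-test, each array left out, and 2 fits without other vectors' arrays that were added after seeing the data.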

Additional observations from a re-analysis of the deposited data

Results flagged for a closer look

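Dixon's ratio was taken for the 47 genes on the 4 control and on the 4 knockdown arrays, 94 groups in all. In 9 of them a single array stood far off. Chance marks about 1 in 20 groups of like arrays, but each group here mixes 2 vectors, so that rate does not apply. All 9 were control groups whose far array was a shNontarget array. The shNontarget arrays lay over 1 log2 unit apart for 16 of the 47 genes and for 34.9% of all genes. The ratio was taken for the 47 genes only. Replicate 2 was the low array for 8 genes. The IFITM genes were among them, with IFITM1 at 2.20 against 3.76 to 3.85 on the other control arrays (ratio 0.945), IFITM2 at 2.84 against 4.33 to 4.58 (0.860) and IFITM3 at 3.73 against 5.17 to 5.36 (0.887). The others were ZC3HAV1 (1.67 against 1.98 to 2.00, ratio 0.941), ISG20 (1.40 against 2.10 to 2.19, 0.889), OAS2 (-0.35 against 0.67 to 0.81, 0.876), IFI16 (0.15 against 0.69 to 0.78, 0.859) and IFIT3 (0.35 against 0.95 to 1.07, 0.839). For HERC6 the low array was shNontarget replicate 1, at -3.62 against -2.19 to -1.90 (0.831).

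RSAD2 differed between the sublines, shBEX2-2 minus shBEX2-1, by -5.58 on the log2 scale, which passed limma's test of the difference itself (adjusted p = 0.0465).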

How the results depend on the processing

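No called difference of a named gene, and none of the fixed set between the sublines or between shBEX2-2 and shControl, turned its direction under the alternatives run. Uncalled ones did. In the pooled comparison, only shNontarget as control gave 0.13 for DDX58, 0.096 for OAS1 and 0.55 for RSAD2, only shControl gave 0.034 for IRF1, normexp gave 0.023 for IRF1 and 0.29 for RSAD2, and array weights gave -0.34 for ISG15. With each array left out, the pooled difference ran from -0.36 to 0.18 for DDX58, -0.087 to 0.10 for IRF1, -0.38 to 0.042 for IRF7, -0.79 to 0.074 for OAS1, -1.20 to 0.081 for MX1, -0.083 to 0.45 for ISG15 and -1.51 to 0.60 for RSAD2, and that of shBEX2-1 from shControl from -0.16 to 0.36 for IRF9, -0.22 to 0.81 for OAS1 and -0.0801 to 0.90 for IFIT1. Over all named differences, 596 values under settings other than leaving out an array stayed on their side of the threshold, 65 lost the call and 60 gained it; with an array left out these were 330, 176 and 36. Counts of called genes moved by over 1.5 times as follows, and the cause was not tested unless given. Array weights, whose estimation stopped before it converged, gave 32 for the pooled comparison (30 lower), 17 for shBEX2-1 and 40 for shBEX2-2 against shControl, beside 58.7%, 41.3% and 49.7% of all genes, 0 for either subline against shNontarget and 44 between the sublines, beside 14.1% of all genes. The 2 fits added after seeing the data, from only the 4 arrays compared and without both shNontarget arrays, gave 15 and 15 for shBEX2-1 against shControl, 41 and 40 for shBEX2-2 against shControl, and 42 and 44 between the sublines; the fit of 4 arrays gave 0 for either subline against shNontarget. The replicate block gave 2 for shBEX2-1 against shControl, 3 for shBEX2-1 against shNontarget and 0 between the sublines, and moved no other count by that much. Without the filter on dim probes the counts were 2 for shBEX2-1 against shControl, 4 for shBEX2-1 and 3 for shBEX2-2 against shNontarget, and 0 between the sublines. Between the sublines quantile normalization gave 2, normexp 0, and probes well above background on all 8 arrays 0, since that filter leaves RSAD2 out. In the pooled comparison the vector as a random block gave 1, the 4-vector model 5, only shControl as control 1 and the rank product 2.

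With each array left out in turn, the counts ran from 0 to 2 (pooled), 0 to 27 (shNontarget against shControl), 0 to 15 and 0 to 40 (shBEX2-1 and shBEX2-2 against shControl), 0 to 34 and 0 to 40 (the same against shNontarget), and 0 to 44 (sublines), a lone array being taken to vary like the other vectors. The highest came without a shNontarget array in all but the pooled comparison. Dim signal limits RSAD2 in shBEX2-2 cells and HERC5 throughout.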
